A study of Rattus norvegicus with 20 samples.

Results

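The genes described are 9 genes of mitochondrial fatty acid oxidation (Acadvl, Acadm, Acadl, Acads, Cpt1a, Cpt2, Hadha, Hadhb and Etfdh), taken from a list of names. The 9 genes were chosen with earlier results of these data known. All 9 were measured, among 14217 genes in all, each by its brightest probe set on average. Islets of Langerhans from male Wistar rats aged 8 weeks were cultured with 10% serum and 8 mM glucose, and RNA of whole islets was hybridised to 1 Affymetrix array per sample. The 4 groups of 5 samples were islets given adenovirus for Nr4a1, for Nr4a3 or for green fluorescent protein (GFP) over 18 h, and islets left untreated. Collection was at 48 h from addition of virus. The orphan nuclear receptors Nr4a1 and Nr4a3 are transcription factors, and the GFP virus controls for infection. The treatment protocol of the labels names other viruses (beta-galactosidase and Nkx6.1) than the titles do; groups follow the titles. The titles call the replicates biological. The sources used here do not name the promoter in each virus, the islet cells it entered or which animals gave which sample, and p-values therefore rest on the spread among these cultures alone.

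Fatty acids enter mitochondria as carnitine esters: CPT1A, on the outer membrane, makes them, a carrier encoded by Slc25a20 moves them inward, and CPT2, on the inner membrane, returns them to coenzyme A. Acyl-CoA dehydrogenases then begin each round of beta-oxidation, very-long-chain (Acadvl), long-chain (Acadl), medium-chain (Acadm) and short-chain (Acads), and the trifunctional protein of the subunits HADHA and HADHB carries long chains through the later steps. Electrons from the dehydrogenases pass over the electron transfer flavoprotein to its ubiquinone oxidoreductase, encoded by Etfdh, and so reach the respiratory chain. In beta cells, high glucose raises malonyl-CoA, which inhibits CPT1 and turns fatty acids away from oxidation.

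Upstream sequence is shown for the 3 genes that rose in the arrays labelled Nr4a1 and for the stretch between Hadha and Hadhb, which lie head to head. The sequences come from RefSeq on build GRCr8, which held promoters for 8 of the 9 genes. Each is written 5′ to 3′ toward its gene, starts and ends outside every annotated gene, and has in capitals the nuclear receptor half-site AGGTCA and the GC box GGGCGG on either strand.
Acadvl, chr10:55236787-55236955, minus strand: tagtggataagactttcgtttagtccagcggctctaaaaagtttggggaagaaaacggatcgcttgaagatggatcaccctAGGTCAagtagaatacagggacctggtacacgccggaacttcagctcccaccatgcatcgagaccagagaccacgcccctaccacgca
Acadm, chr2:245542865-245543114, minus strand: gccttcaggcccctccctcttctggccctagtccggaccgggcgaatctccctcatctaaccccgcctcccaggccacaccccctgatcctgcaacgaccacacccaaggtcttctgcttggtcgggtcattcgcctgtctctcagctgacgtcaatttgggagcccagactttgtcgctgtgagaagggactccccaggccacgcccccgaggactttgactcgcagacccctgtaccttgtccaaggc
Etfdh, chr2:167060759-167061008, minus strand: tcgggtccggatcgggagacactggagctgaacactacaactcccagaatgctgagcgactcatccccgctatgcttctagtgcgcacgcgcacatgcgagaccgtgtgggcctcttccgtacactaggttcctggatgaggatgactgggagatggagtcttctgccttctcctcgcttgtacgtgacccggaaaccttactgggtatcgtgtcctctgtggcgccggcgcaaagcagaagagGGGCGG
Hadha and Hadhb, chr6:31907558-31907800, plus strand toward Hadha: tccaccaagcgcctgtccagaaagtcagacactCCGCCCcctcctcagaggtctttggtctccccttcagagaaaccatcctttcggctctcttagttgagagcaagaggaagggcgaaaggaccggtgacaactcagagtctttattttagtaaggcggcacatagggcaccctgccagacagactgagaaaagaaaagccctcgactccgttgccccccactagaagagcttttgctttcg

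The stretch between Hadha and Hadhb is 243 bases long. Acadvl holds 1 half-site in its stretch, and Etfdh and the Hadha and Hadhb stretch hold 1 GC box each. Over the whole windows of 250 bases before to 50 after the start, the NBRE, the element AAAGGTCA that NR4A receptors bind as monomers, was found on either strand in 0 of the 8 promoters and in 1.43% of all 33469 rat promoters in the table. The half-site AGGTCA, which is part of the NBRE, was found in 2 of the 8 (Acadvl and Hadhb) and in 16.2% of all promoters, and the GC box in 6 of the 8 and in 33.1%. These are matches of letters in a short window. The windows of Hadha and Hadhb share the 243 bases between them, so the GC box there counts for both genes.

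Nr4a3 replicate 2 was unlike the remaining 19 arrays. Across genes, which are not independent replicates, its correlation with the remaining arrays averaged 0.941, where theirs averaged 0.982 to 0.989, and its log2 gap between the 3′ and 5′ control probe sets of GAPDH was 2.06, where theirs was 0.27 to 0.74. It held the lowest value of all 20 arrays for each of the 9 genes. It was kept, and results for the 9 genes whose sign or call it changes, and list counts given below that it changes, are also given without it. The probe set for Nr4a1 had log2 levels of 5.82 to 6.11 in the arrays labelled Nr4a1 and 5.98 to 6.20 in the GFP arrays, and that for Nr4a3 had 5.64 to 6.10 in the arrays labelled Nr4a3 and 5.45 to 5.83 in the GFP arrays. The arrays labelled Nr4a1 had 5.87 to 6.18 for the Nr4a3 probe set, above every GFP array, with a median of 6.13, against 5.80 in the arrays labelled Nr4a3. Untreated arrays, given no virus, had 5.74 to 5.93 for that probe set, with a median of 5.84, and overlapped both. The sources used here do not place these probe sets relative to the virus inserts. They settle no label: a swap of the Nr4a1 and Nr4a3 labels cannot be told apart from these values, and the results below would swap with it. Hormone transcripts of the islet were present, Ins1 at mean log2 levels of 14.96, 14.91, 14.96 and 14.98 and Gcg at 14.70, 14.67, 14.73 and 14.78 in the Nr4a1, Nr4a3, GFP and untreated arrays.

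Islets given Nr4a1 virus were first set against those given GFP virus, which carry the infection without the receptor. Acadvl, Acadm and Etfdh rose, by 1.56-fold, 1.30-fold and 1.60-fold, and none of the 9 genes fell. The 3 rises among 9 genes compare with 6.16% of the 14217 genes rising and 2.55% falling in this comparison. The median log2 change of the 9 genes was 0.19, against -0.0013 over all genes. As the 9 genes were chosen with earlier results of these data known, these shares are a description. Genes were called at a Benjamini-Hochberg adjusted p under 0.05 over all genes, from limma, a linear model whose variance estimate is shared between genes. All 5 arrays labelled Nr4a1 lay above all 5 GFP arrays for the same 3 genes, a pattern found in 10.6% of all genes.

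Acadvl, which encodes the first enzyme for very long chains, had log2 intensities of 8.99, 8.92, 8.49, 8.88 and 8.82 in the Nr4a1 arrays, against 8.19, 8.18, 8.30, 8.07 and 8.15 in the GFP arrays. The lowest Nr4a1 array, replicate 3, was still above the highest GFP array. The log2 change was 0.64 ± 0.13 (SE, limma adjusted p = 0.00239, n = 5 per group). Untreated islets, at 7.94, 8.29, 7.98, 8.19 and 8.23, overlapped the GFP arrays.

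Acadm, the medium-chain enzyme, had log2 intensities of 9.80, 9.64, 9.68, 9.54 and 9.43 in the Nr4a1 arrays, against 9.33, 9.16, 9.17, 9.39 and 9.14 in the GFP arrays. The groups did not overlap, but Nr4a1 replicate 5 and GFP replicate 4 lay close together. The log2 change was 0.38 ± 0.09 (SE, limma adjusted p = 0.0137, n = 5 per group), and without Nr4a1 replicate 1 it was 0.34 with an adjusted p of 0.0528. Untreated islets had 9.24, 9.19, 9.37, 9.36 and 9.45, and the highest of them, replicate 5, reached into the Nr4a1 range.

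Etfdh, the step that hands the electrons to ubiquinone, had log2 intensities of 9.04, 9.07, 8.83, 8.86 and 8.78 in the Nr4a1 arrays, against 8.26, 8.20, 8.29, 8.23 and 8.18 in the GFP arrays. The gap between the groups was wide and the GFP arrays lay close together. The log2 change was 0.68 ± 0.18 (SE, limma adjusted p = 0.0245, n = 5 per group). Leaving out Nr4a1 replicate 1 or 2 or GFP replicate 2 or 5 took the adjusted p to between 0.0501 and 0.0682. Without Nr4a3 replicate 2, which enters only through the shared estimate of spread, the standard error was 0.09 and the limma adjusted p 2.06e-05. Untreated islets, at 8.12, 8.44, 8.15, 8.26 and 8.31, overlapped the GFP arrays.

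The other dehydrogenases did not pass. Acadl had a log2 change of 0.23 ± 0.12 (SE, limma adjusted p = 0.332) and Acads one of 0.19 ± 0.08 (adjusted p = 0.181, n = 5 per group), and both groups overlapped. Of the carnitine steps, Cpt1a had a change of -0.02, with a 95% interval of -0.23 to 0.19, and Cpt2 one of 0.02, with an interval of -0.38 to 0.43. The interval for Cpt2 was -0.16 to 0.20 without Nr4a3 replicate 2. The second Cpt1a probe set, dimmer than the first, had a change of -0.12 ± 0.11.

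Hadha and Hadhb, the subunits of the trifunctional protein, had log2 changes of 0.19 ± 0.20 and -0.11 ± 0.11 (SE, limma adjusted p = 0.719 and 0.681, n = 5 per group). Hadha had log2 intensities of 10.32, 10.37, 10.27, 10.18 and 10.27 in the Nr4a1 arrays, against 10.11, 10.08, 10.20, 10.04 and 10.01 in the GFP arrays, and only Nr4a1 replicate 4 fell within the GFP range. Its standard error was 0.06 with Nr4a3 replicate 2 left out, and it passed (limma adjusted p = 0.0349), so that 4 of 9 genes rose and none fell, where 12.2% of all genes rose and 6.86% fell. Its other probe sets, both dimmer, had changes of -0.17 and -0.02. Hadhb had log2 intensities of 11.59, 11.75, 11.76, 11.63 and 11.73 in the Nr4a1 arrays, against 11.96, 11.72, 11.84, 11.74 and 11.75 in the GFP arrays, which overlapped.

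**Figure D1:**
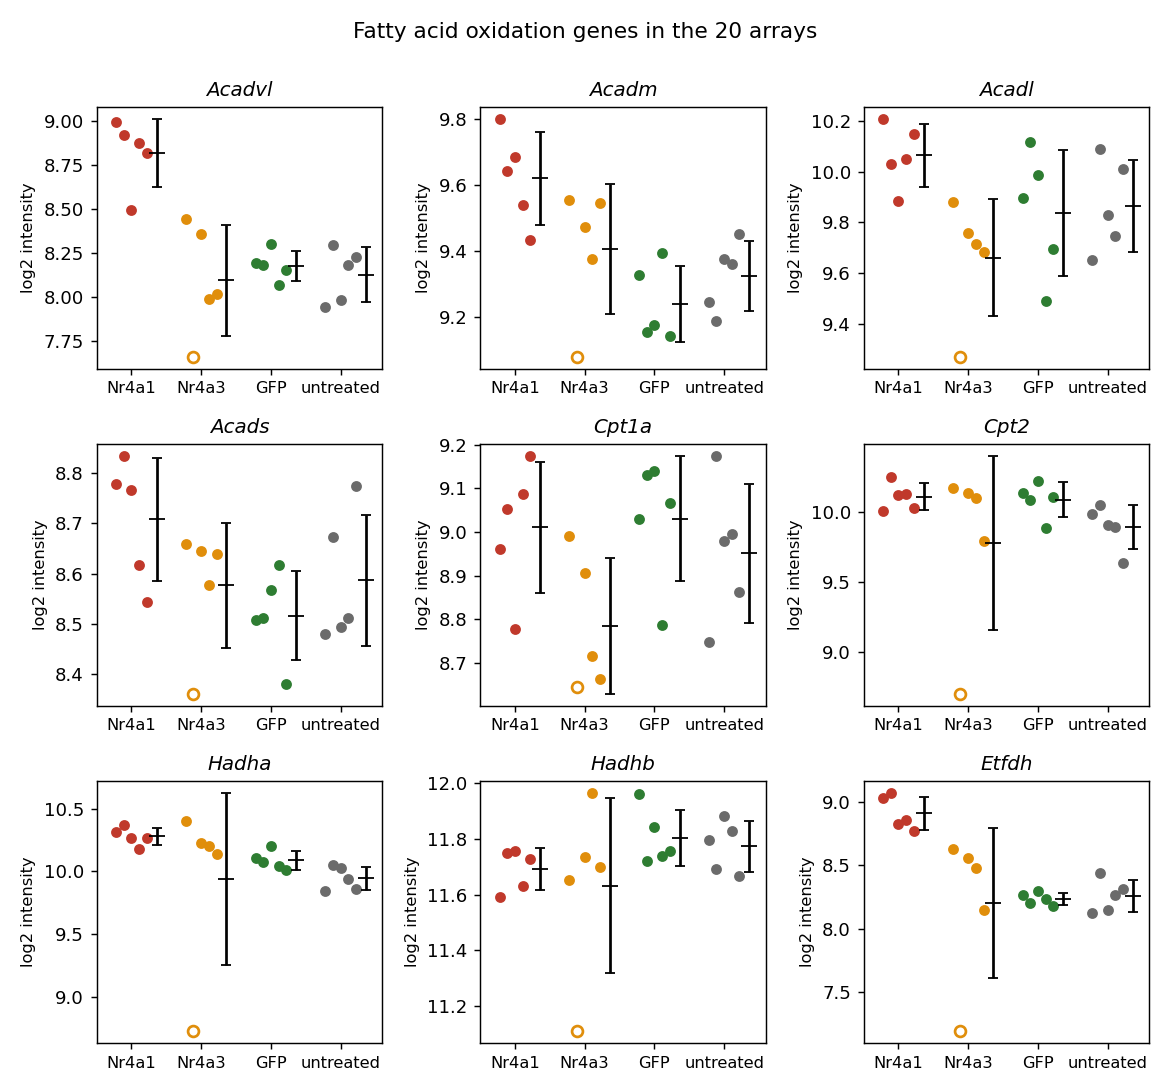
Log2 intensity (y axis) of each of the 9 genes in every array, by group (x axis: Nr4a1, Nr4a3, GFP, untreated); points are arrays, the open point is Nr4a3 replicate 2, and bars are the mean ± SD of 5 arrays. The axes do not start at 0 and differ between panels. Acadvl, Acadm and Etfdh are higher in every Nr4a1 array than in any GFP array, and Nr4a3 replicate 2 is the lowest array in every panel.

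Islets given Nr4a3 virus were set against the same GFP arrays. None of the 9 genes passed, at a lowest limma adjusted p of 0.275 for Cpt1a, and among all genes 1.75% rose and 0.176% fell. At an unadjusted limma p under 0.05 there were 1 of the 9 genes (Cpt1a) and 1818 of all 14217 genes. Without Nr4a3 replicate 2, unadjusted limma p-values were 0.00542 for Acadm, 0.0252 for Etfdh and 0.0298 for Hadha, all with positive changes. For Cpt1a, with a negative change, the unadjusted limma p was 0.0463 in that fit. Over all genes, unadjusted p-values were not counted there. The median log2 change of the 9 genes was -0.15 with all arrays and 0.02 without Nr4a3 replicate 2, against 0.0033 and 0.02 over all genes. Both comparisons with GFP share those arrays.

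None of the 9 genes passed limma with that array left out, where 3.32% of all genes rose. Acadm came nearest, with log2 intensities of 9.55, 9.47, 9.37 and 9.55 in the other 4 Nr4a3 arrays, of which replicate 4 lay within the GFP range. Its log2 change was 0.17 ± 0.09 (SE, limma adjusted p = 0.489) with all arrays and 0.25 ± 0.08 (adjusted p = 0.0926) without replicate 2. A fit that gives each array a weight, which was 0.0419 for replicate 2, called it (0.26, limma adjusted p = 0.0188).

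Etfdh had log2 intensities of 8.63, 7.19, 8.56, 8.48 and 8.15 in the Nr4a3 arrays in the order of replicates, so that 3 arrays lay above and 2 below all GFP arrays. Its log2 change was -0.03 ± 0.18 (SE, limma adjusted p = 0.956) with all arrays and 0.22 ± 0.09 (adjusted p = 0.215) without replicate 2. Acadvl, at 8.44, 7.66, 8.36, 7.99 and 8.02, had 2 arrays above and 3 below the GFP arrays and a change of -0.08 ± 0.13 (adjusted p = 0.795), or 0.02 ± 0.11 without replicate 2. Cpt1a, the entry step, had a change of -0.25 ± 0.10 (SE, limma adjusted p = 0.275), or -0.21 ± 0.10 without replicate 2 (adjusted p = 0.299). The signs for Acadvl, Hadha and Etfdh thus rested on that array.

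The direct comparison of Nr4a1 with Nr4a3 tests the difference between both receptors. Acadvl was higher in the Nr4a1 arrays, by 1.65-fold (log2 0.72 ± 0.13, SE, limma adjusted p = 0.0071, n = 5 per group), and the only one of the 9 genes that passed; 0.598% of all genes were higher and 0.0352% lower. In all 5 Nr4a1 arrays Acadvl was above all 5 Nr4a3 arrays, of which replicate 1 came nearest, at 8.44. Without Nr4a3 replicate 2 the log2 difference was 0.62 ± 0.11 (adjusted p = 0.00702). A fit to only the 10 arrays of both groups, in which replicate 2 weighs more on the spread, gave an adjusted p of 0.152, and it called 1 gene of 14217.

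For Etfdh the groups did not overlap either, and the log2 difference was 0.71 ± 0.18 (limma adjusted p = 0.0945). Without Nr4a3 replicate 2 the difference was smaller, 0.46 ± 0.09, and passed (adjusted p = 0.0161), so that 2 of 9 genes were higher, beside 0.816% of all genes. It also passed without Nr4a3 replicate 1 (0.82, adjusted p = 0.0429). Acadl, at 10.21, 10.03, 9.88, 10.05 and 10.15 in the Nr4a1 arrays and 9.88, 9.27, 9.76, 9.71 and 9.68 in the Nr4a3 arrays, was a further gene without overlap, but did not pass (0.40 ± 0.12, limma adjusted p = 0.193). Groups without overlap and Nr4a1 above were found in these 3 of 9 genes, and in 1.72% of all genes.

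All 9 genes were higher in the Nr4a1 group in this comparison, with a median log2 difference of 0.33, against -0.0027 over all genes. That median was 0.13 without Nr4a3 replicate 2, and Hadhb then had a difference of -0.07. For Acadm the difference without that array was 0.13, with a 95% interval of -0.03 to 0.30, and for Cpt1a 0.19, with an interval of -0.02 to 0.40.

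**Figure D2:**
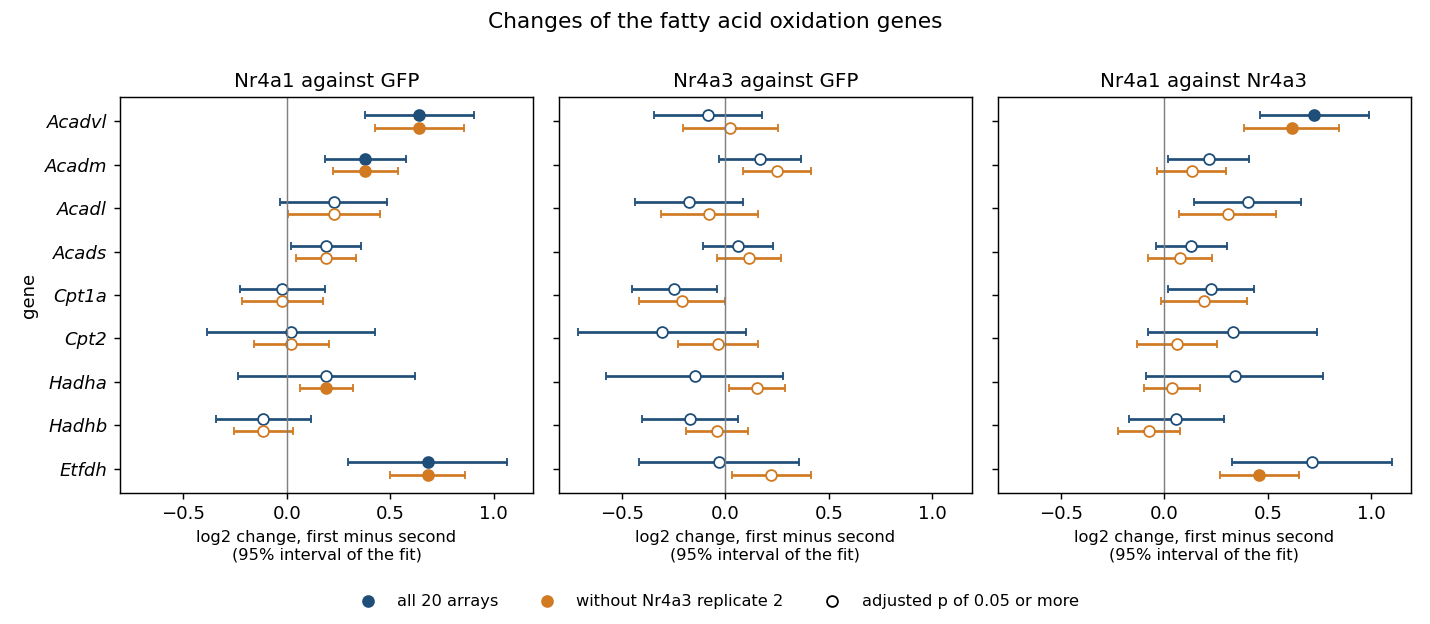
Log2 change of each of the 9 genes (x axis, first group minus second) with its 95% interval, from the fit to all 20 arrays and from the fit without Nr4a3 replicate 2; filled points have an adjusted p under 0.05. Acadvl is filled in both fits against GFP and against Nr4a3 in the Nr4a1 group, and no point is filled for Nr4a3 against GFP.

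The comparison of GFP with untreated islets asks what the virus itself changes. None of the 9 genes passed, nor did any of the 14217 genes in limma (0%), also with array weights. At an unadjusted p under 0.05 there were 412 of all genes and 0 of the 9. Without Nr4a3 replicate 2, Cpt2 and Hadha had unadjusted limma p-values of 0.0377 and 0.0295, both with an adjusted p of 0.799. For that fit unadjusted p-values were not counted over all genes. Log2 changes of the 9 genes ran from -0.08 for Acadm to 0.19 for Cpt2, with a median of 0.03, against -0.02 over all genes. Cpt2 had log2 intensities of 10.14, 10.09, 10.23, 9.89 and 10.11 in the GFP arrays and 9.99, 10.05, 9.91, 9.89 and 9.63 in the untreated arrays, which overlapped.

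Other genes of the pathway were taken from lists of names. In the arrays labelled Nr4a1, Slc25a20, the carrier between CPT1A and CPT2, rose by a log2 of 0.53 ± 0.11 (limma adjusted p = 0.00365), and Slc22a5, which brings carnitine into the cell, fell by 0.36 (adjusted p = 0.0123, n = 5 per group). They were 2 of 5 genes of the carnitine shuttle. Of 17 genes listed as other mitochondrial beta-oxidation genes, 4 rose and 1 fell, beside 6.16% and 2.55% of all genes. The list also holds dehydrogenases of amino acid breakdown, such as Gcdh. The median log2 change of the 17 was 0.23. Those that rose were Acaa2, a mitochondrial thiolase (0.42 ± 0.12), Decr1, a reductase for unsaturated chains (0.42 ± 0.11), Acad11, another acyl-CoA dehydrogenase (0.51 ± 0.12), and Gcdh, a dehydrogenase of lysine breakdown (0.24 ± 0.07). Acadsb, a dehydrogenase of branched short chains, fell by 0.35. With Nr4a3 replicate 2 left out, 10 rose and 1 fell, beside 12.2% and 6.86% of all genes.

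Of the electron transfer flavoprotein, the partner of Etfdh, Etfa had a log2 change of 0.20 ± 0.08 (SE, limma adjusted p = 0.143) and Etfb one of 0.24 ± 0.15 (adjusted p = 0.399), and Etfb passed without Nr4a3 replicate 2 (adjusted p = 0.0244). Hadh, the short-chain hydroxyacyl-CoA dehydrogenase, which is high in beta cells, had a change of -0.25 ± 0.25. Of 12 genes of fatty acid uptake and activation none passed in either direction, with a median of 0.05. The fatty acid transporter gene Slc27a1 was the only one to rise once replicate 2 was left out (0.37, limma adjusted p = 0.00154), and it also rose in the arrays labelled Nr4a3 in that fit.

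Peroxisomes shorten the longest chains. Of 13 measured genes of that route 3 rose and none fell in the arrays labelled Nr4a1, beside 6.16% and 2.55% of all genes. The median log2 change of the 13 was 0.18. Hsd17b4, the peroxisomal multifunctional enzyme, rose by 1.06 ± 0.11 (limma adjusted p = 2.86e-06), Abcd3, a transporter of the peroxisomal membrane, by 0.55 ± 0.09 and its relative Abcd2 by 0.60 ± 0.11 (SE, n = 5 per group). Hsd17b4 also rose in the arrays labelled Nr4a3, by 0.67 ± 0.11 (limma adjusted p = 0.0021), the only one of the 13 to do so. Its direct difference between Nr4a1 and Nr4a3 was 0.39 ± 0.11 and did not pass (adjusted p = 0.133).

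Of 15 measured regulators of fatty acid oxidation, Nrip1, a corepressor of nuclear receptors, was the only one to pass, with a rise of 0.91 ± 0.15 in the Nr4a1 arrays (limma adjusted p = 0.000422) and of 0.68 ± 0.15 in the Nr4a3 arrays (adjusted p = 0.017). Among all genes 6.16% rose in Nr4a1 against GFP and 1.75% in Nr4a3 against GFP. The fatty acid receptor gene Ppara had log2 changes of -0.05 and 0.10 in the arrays labelled Nr4a1 and Nr4a3, and the coactivator gene Ppargc1a -0.30 (adjusted p = 0.163) and -0.19. None of the 11 measured PPAR target genes outside beta-oxidation passed in either group. Pdk4, which restrains pyruvate oxidation, had a change of -0.90 ± 0.29 in the Nr4a1 arrays (limma adjusted p = 0.0601) and passed without Nr4a3 replicate 2 (adjusted p = 0.0318). With that array left out, 5 of the 13 peroxisomal genes and 3 of the 15 regulators rose and 1 regulator fell, beside 12.2% of all genes rising and 6.86% falling. Among the PPAR targets Ucp2, a mitochondrial uncoupling protein, rose by 0.36 (limma adjusted p = 0.00734).

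Other mitochondrial genes were read in the same way, beside 6.16% of all genes rising in Nr4a1 against GFP and 12.2% without Nr4a3 replicate 2. Of 12 citric acid cycle genes 3 rose and none fell (Sdha by 0.30 ± 0.07, Suclg1 by 0.38 ± 0.12 and Sucla2 by 0.24 ± 0.07 on the log2 scale), with a median of 0.19. There were 6 rises without Nr4a3 replicate 2. Of 10 genes of mitochondrial mass none passed, with a median of 0.12, and 4 rose without that array. Of the 2 measured ketone body genes, Oxct1, which lets cells use ketone bodies, rose by 0.58 ± 0.10 (limma adjusted p = 0.00075). In the arrays labelled Nr4a3 none of the genes of these 3 lists passed, and without replicate 2 the rises were 2, 1 and 1 of them, beside 3.32% of all genes. Set directly against Nr4a3, no gene of the 9 further lists passed in the Nr4a1 arrays with all arrays fitted. Among all genes only 0.598% were higher and 0.0352% lower there, so few calls were to be had in lists of this size. Slc25a20 (0.35, limma adjusted p = 0.0485), Acad11 (0.32, adjusted p = 0.0404) and Abcd3 (0.35, adjusted p = 0.0478) were higher once replicate 2 was left out, beside 0.816% of all genes.

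**Figure D3:**
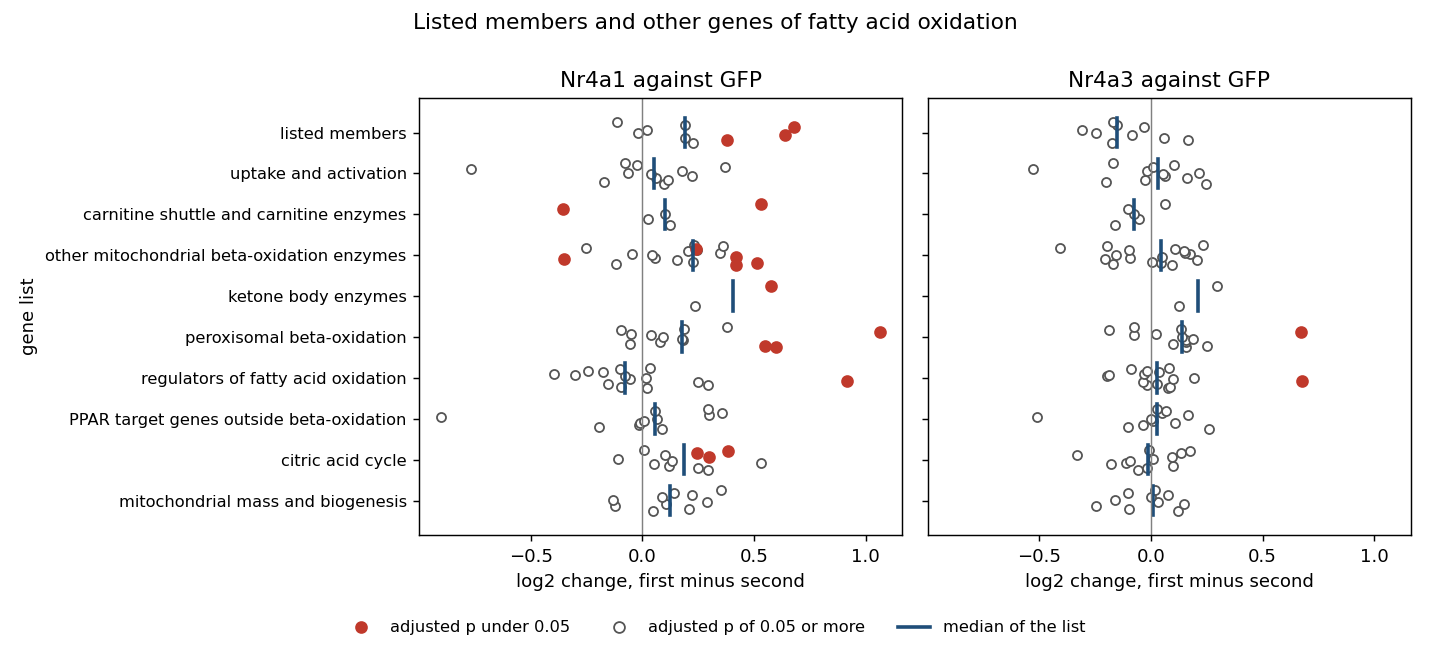
Log2 change (x axis) of every measured gene of the 9 listed members and of 9 further lists (rows) in Nr4a1 against GFP (left) and Nr4a3 against GFP (right), which share the GFP arrays; filled points have a limma adjusted p under 0.05 and bars are list medians. In the left panel 3 members, 4 other mitochondrial, 3 peroxisomal and 3 citric acid cycle genes are filled above 0. Slc25a20, Oxct1 and Nrip1 are also filled above 0 there, and Slc22a5 and Acadsb below 0. In the right panel Hsd17b4 and Nrip1 are filled.

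Markers of acinar cells, the enzyme-making cells of the exocrine pancreas, also differed between the Nr4a1 and GFP arrays. Of 17 measured acinar markers 14 rose and none fell in the arrays labelled Nr4a1, beside 6.16% and 2.55% of all genes. The mean log2 level of these markers was 9.62 to 10.78 there and 6.96 to 9.15 in the GFP arrays. Their part in the rises above was not tested. Untreated replicate 5 had an acinar mean of 10.10, within the Nr4a1 range, and its log2 intensities were 8.23 for Acadvl and 8.31 for Etfdh, within the range of the other untreated arrays, and 9.45 for Acadm, within the Nr4a1 range. In the arrays labelled Nr4a3 the acinar mean was 8.63 to 9.44, with 1 of 17 markers rising, beside 1.75% of all genes. In RNA of whole islets, fewer cells of a type and less RNA per cell cannot be told apart.

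Of 11 measured beta cell markers 5 fell in the arrays labelled Nr4a1, or 8 without Nr4a3 replicate 2, beside 2.55% and 6.86% of all genes. The median log2 change of these markers was -0.56 in both fits. Of 11 endothelial markers 7 fell in both fits, with a median of -0.60. In the arrays labelled Nr4a3, 1 beta cell marker fell in each fit, and 2 endothelial markers fell, or 3 without replicate 2. Among all genes 0.176% fell there, or 0.387% without replicate 2. In Nr4a1 against GFP none of the 5 adipocyte, 5 hepatocyte, 10 fibroblast or 10 macrophage markers passed. Of 8 duct markers 1 rose, beside 6.16% of all genes. Without Nr4a3 replicate 2, 1 fibroblast, 1 duct and 1 of 8 other islet hormone cell markers also fell. For GAPDH the Nr4a1 arrays had log2 gaps from 3′ to 5′ of 0.27 to 0.36, and the GFP arrays of 0.50 to 0.74, without overlap. The Nr4a1 gaps also lay below those of every Nr4a3 and untreated array, the lowest of which was 0.41 in each group. For ACTB, another control, the gaps of the Nr4a1 arrays overlapped those of each other group. The part of the GAPDH gap in the rises, and in the differences between Nr4a1 and Nr4a3, was not tested.

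**Figure D4:**
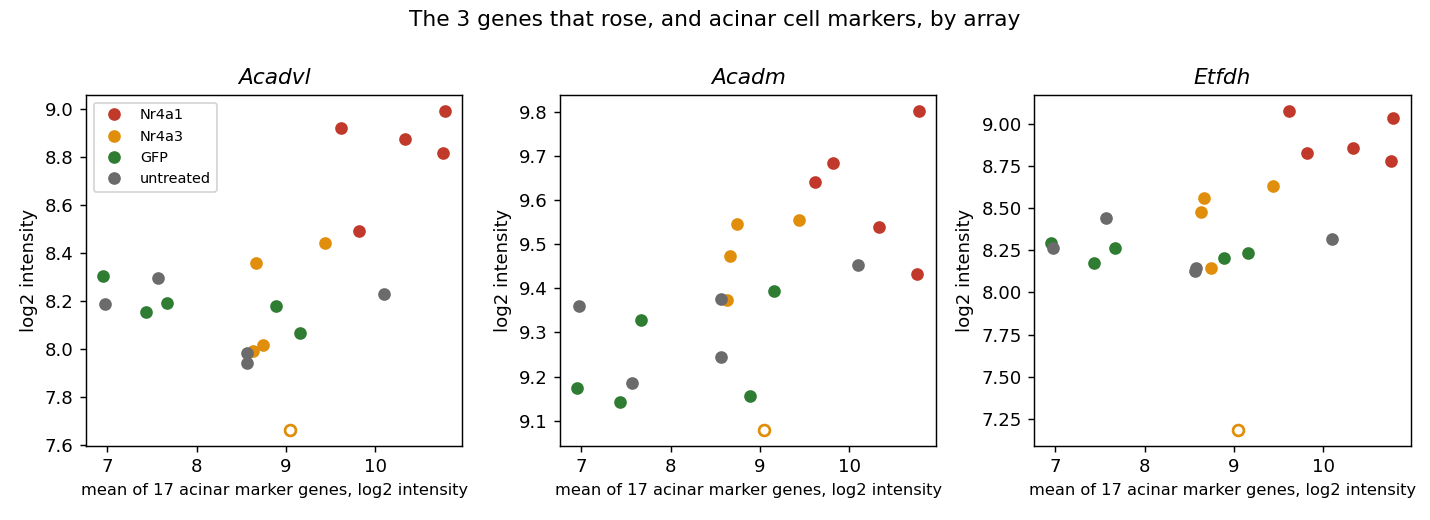
Log2 intensity of Acadvl, Acadm and Etfdh (y axes) against the mean log2 intensity of 17 acinar marker genes (x axis) in each of the 20 arrays, coloured by group, with Nr4a3 replicate 2 as an open point. Untreated replicate 5, at an acinar mean of 10.10, lies at 8.23 for Acadvl and 8.31 for Etfdh, below all 5 Nr4a1 arrays, and at 9.45 for Acadm, within their range; it is 1 array.

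How closely the 9 genes varied together among replicates depended on Nr4a3 replicate 2. After group means were removed, 34 of the 36 pairs of genes correlated positively over 20 arrays, with a median Pearson's r of 0.59, and 25 of 36 over 19 arrays without Nr4a3 replicate 2, with a median of 0.28. Hadha and Hadhb, which share the stretch printed above, had an r of 0.82 over 20 arrays and of 0.08 over 19. The genes most like the mean of the 9 over all 20 arrays were Eef1b2 (Pearson's r = 0.963), Snrpb, Elob, Clptm1 and Phpt1 (0.954), and over the 19 arrays Rab25 (0.945), Slc25a20 (0.939), Sdha (0.934), Slc16a6 and Wdr73 (0.925). The arrays share groups and, with replicate 2, 1 low array, so these values are a description. Pairs of other genes were not counted beside the 36.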

How the data were processed

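RNA of 20 samples of rat islets was measured on 20 Affymetrix arrays. The authors deposited linear intensity values per probe set, made with RMA per the submitters' processing notes (no version is given there). Their log2 was taken without rescaling. Array medians were 98.9 to 103 in linear intensity, so a change is relative to the rest of the array. Of 31099 probe sets, 20826 had 1 gene symbol in the platform's annotation, 436 several and 9831 none, and 57 were controls. 0 symbols changed when checked through gene identifiers. The brightest probe set of each of 14217 genes was used. Group means were estimated over all 20 arrays in limma 3.58.1, run under R 4.3.3 (16 residual and 3.64 prior degrees of freedom, two-sided, Benjamini-Hochberg over all genes), after a test on simulated data. Precision rests on how many arrays a group has. The members and lists were chosen with earlier results of these data known. Genes named are the members, up to 4 called genes per list and comparison, 8 fixed pathway genes and the 5 genes most like the members' mean. The labels state no pairing, so no block was used. Across groups, same-numbered replicates had a mean r of 0.00524, with pairs from -0.297 to 0.495 and 7 of 30 over 0.1. Alternatives changed the arrays fitted, the variance model, weights, scaling, filters and probe sets; those that left Nr4a3 replicate 2 out of likeness, overlap and list counts were chosen after seeing the data.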

Additional observations from a re-analysis of the deposited data

Results flagged for a closer look

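A single array lay far from its group for 3 of the 9 genes, and it was Nr4a3 replicate 2 each time. Its log2 intensity was 8.36 for Acads, against 8.58 for the next array of the group, 8.70 for Cpt2, against 9.80, and 8.73 for Hadha, against 10.14. With 36 sets of 5 arrays looked at, chance flags about 1 in 20.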

How the results depend on the processing

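The rise of Acadvl in Nr4a1 against GFP passed in all 29 alternatives (log2 0.60 to 0.72), that of Acadm in 28 and that of Etfdh in 25. Many alternatives, such as the replicate block or leaving out an array of neither group, cannot move the log2 change. They alter only its estimated spread and the adjustment, so these tallies are no count of separate checks. With single arrays left out, the members that rose in Nr4a1 against GFP numbered 1 (without Nr4a1 replicate 1) to 4 (without Nr4a3 replicate 2), with a median of 0.17 to 0.22; in Nr4a1 against Nr4a3 they numbered 1 to 2, with a median of 0.13 to 0.43; in Nr4a3 against GFP and in GFP against untreated they numbered 0, and none fell in any comparison. With array weights the rises were 5 in Nr4a1 against GFP (Acads, 0.22, and Hadha, 0.19, joined), 1 in Nr4a3 against GFP (Acadm) and 2 in Nr4a1 against Nr4a3, with a median of 0.15. A fit to only the 10 arrays compared gave 0 rises in Nr4a1 against Nr4a3. Averaging all probe sets per gene took the change of Hadha in Nr4a1 against GFP to 7.88e-05. With the replicate number as a block the members that rose were 3, 0, 1 and 0 in the 4 comparisons, and the calls over all genes in Nr4a1 against GFP were 1088, against 1239 without it. Calls over all genes in Nr4a1 against GFP, Nr4a3 against GFP and Nr4a1 against Nr4a3 were 1239, 274 and 90 as reported, 2853, 122 and 1 with only the 10 arrays compared, 3576, 1027 and 274 with array weights, and 742 to 2714, 127 to 527 and 43 to 133 with single arrays left out. In the check of numbers, 3 of 20 arrays correlated best with their own number.

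Signs turned only for changes that had not passed, and each range here is over single arrays left out. In Nr4a1 against GFP, Cpt2 ran from -0.028 (GFP replicate 4) to 0.056, below 0 also without Nr4a1 replicate 2, and Cpt1a from -0.081 to 0.038 (Nr4a1 replicate 3), above 0 also without GFP replicate 2 or 3. In Nr4a3 against GFP, leaving out Nr4a3 replicate 2 gave the highest values, the ranges being -0.17 to 0.024 for Acadvl, -0.26 to 0.15 for Hadha and -0.14 to 0.22 for Etfdh; array weights gave 0.12 for Hadha and 0.21 for Etfdh. In Nr4a1 against Nr4a3, Hadhb ran from -0.072 (Nr4a3 replicate 2) to 0.14 and was -0.064 with array weights. In GFP against untreated, Acadl ran from -0.098 to 0.059 and was 0.041 with array weights, Hadhb from -0.0090 to 0.058 and Etfdh from -0.057 to 0.022. Of 1044 member changes recomputed, 1011 kept sign and call, 19 turned sign, 8 gained and 6 lost a call. Many of the 1044 could not turn sign, since their alternative leaves the log2 change as it was. Apart from fewer arrays fitted, the cause of turned signs and changed calls was not tested.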
